A study of Homo sapiens with 18 samples.

Results

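A set of 9 genes of the transforming growth factor beta (TGF-beta) pathway were followed through 6 conditions of an electrotaxis experiment: the ligands TGFB1 and TGFB2, the receptors TGFBR1, TGFBR2 and TGFBR3, the signal carriers SMAD2 and SMAD3, and the inhibitors SMAD7 and SKIL. They were picked by name, with earlier results of these data known. The 9 genes comprise 61 of the 145326 transcripts and 9 of the 32490 gene names in the quantification table, and each gene was taken as the sum of its transcripts. Aggregates of U87mg, an established human glioblastoma line, and of DAOY, an established human line from a desmoplastic cerebellar medulloblastoma, were embedded in Growth Factor Reduced Matrigel, rested for 24 h in the channel, and then exposed to a direct-current field (dcEF). Field strength was 250 V/m, and it lasted 2 or 8 h, or was left off (0 h). Every one of the 6 conditions, U87mg at 0, 2 and 8 h and DAOY at 0, 2 and 8 h, has 3 samples numbered 0, 1 and 2, each pooled from 3 channels, and no allele, agent or drug differs between the conditions beyond the line and the field. The 0 h samples carried no field, and the series has no later samples without a field, so hours of field and hours in the channel cannot be told apart. Each tumour type is represented by 1 line, and only the 3 of the prepared biological replicates with the best quality were sequenced for most conditions.

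TGF-beta ligands are secreted in a latent form and, once freed, bind TGFBR2, a serine/threonine kinase that recruits and activates TGFBR1. The active TGFBR1 phosphorylates SMAD2 and SMAD3, which enter the nucleus with SMAD4 and change transcription, while TGFBR3 (betaglycan) is a co-receptor that presents ligand, TGFB2 above all. SMAD7 and SKIL are themselves induced by the pathway and hold it back, SMAD7 at the receptor and SKIL on SMAD-bound DNA. In glial tumours the pathway is known for its part in invasion and in suppressing the immune response.

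The libraries held between 8341976 and 15610886 estimated counts, with 2.83 to 8.44% of them from mitochondrial transcripts. A gene passed the test at an adjusted p below 0.05 (edgeR's quasi-likelihood test, Benjamini-Hochberg adjustment over all genes). Over all genes, 0 passed at 2 h in U87mg (1239 at an unadjusted p below 0.05, and 83 adjusted with no filter on low counts) and 0 at 2 h in DAOY (424 unadjusted, and 18 with no filter). At 8 h, 243 genes passed in U87mg and 900 in DAOY, counts that single libraries moved strongly: 0 were left without U87mg 8 h replicate 2, and 31 without DAOY 8 h replicate 1, while 753 passed without U87mg 0 h replicate 0. Markers checked the lines in part. The mesenchymal genes VIM and CD44 were abundant in both lines, at a median of 4561 and 2903 TPM in U87mg and of 2133 and 1150 TPM in DAOY. The astrocyte gene GFAP reached at most 3.11 TPM in U87mg, S100B at most 0.17 and SOX2 at most 0.09, so these glial markers were near 0 there. In DAOY, SOX2 was higher, at 2.93 to 6.92 TPM, while GFAP and S100B reached at most 0.85 and 0.40. Other genes of the glioblastoma list were present in U87mg, with medians of 404 TPM for TNC, 96.8 for CHI3L1 and 7.62 for NES, beside 347, 6.32 and 0.50 TPM in DAOY. In DAOY the cerebellar genes ZIC1 and ZIC2 had medians of 12.2 and 10.8 TPM, beside 6.48 and 4.75 in U87mg, with overlapping ranges. Of the same marker list, PTCH1, OTX2 and MYCN had medians of 8.92, 1.80 and 0.58 TPM in DAOY and 2.44, 0.0 and 0.0 in U87mg. GLI1 went the other way, at 0.0 TPM in DAOY and 2.99 in U87mg. In either line EOMES did not exceed 0.33 TPM and NEUROD1 0.18 TPM, and ATOH1 was not listed. The epithelial keratin KRT18 had a median of 176 TPM in DAOY and 0.47 in U87mg. EPCAM, the other epithelial marker, did not exceed 1.80 TPM in DAOY or 2.44 in U87mg. Of the immune markers, PTPRC stayed at or below 0.66 TPM in all 18 libraries, while CD68, a lysosomal protein that is abundant in macrophages, ran from 247 to 602 TPM in U87mg and from 10.8 to 43.9 TPM in DAOY.

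TGFBR2 is shown by sequence first, because in DAOY its transcript shares separated by time, while its sums at the field times overlapped with 0 h. It lies on chromosome 3 at 30606502-30694142 (GRCh38, GENCODE 29 annotation, plus strand) and is listed with 2 transcripts, both protein coding. ENST00000359013 has 8 exons and 4605 bases, and ENST00000295754 has 7 exons and 4621 bases. The first holds a coding exon of 75 bases, exon 2, at chr3:30623199-30623273, which the second skips, and the insert falls in the extracellular part of the receptor. ENST00000295754 also starts 99 bases further upstream, and ENST00000359013 ends 8 bases further downstream. Capitals mark the extra exon, with 15 bases of each neighbouring exon, and the second line is the junction of the transcript that skips it.
ENST00000359013: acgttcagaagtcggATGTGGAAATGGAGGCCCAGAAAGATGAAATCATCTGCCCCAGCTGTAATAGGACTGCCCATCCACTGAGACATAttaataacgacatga
ENST00000295754: acgttcagaagtcggttaataacgacatga
Of all 31-base words of these transcripts, 113 of 4575 (2.47%) occur only in ENST00000359013 and 129 of 4591 (2.81%) only in ENST00000295754, so the split between them rests on the few reads that cover these words. The words only in ENST00000295754 include those of its earlier start. Use of the exon and use of the start were therefore not told apart. kallisto also used a fragment length and its spread given for each sample, and the part of these settings in the split was not tested.

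In DAOY the transcript that skips the exon was nearly absent without a field and present with it. ENST00000295754 had 6.2, 0.9 and 0.1 estimated counts in replicates 0, 1 and 2 at 0 h, then 259, 301 and 358 at 2 h, and 190, 171 and 248 at 8 h. Its partner ENST00000359013 had 616, 538 and 633 estimated counts at 0 h, 249, 313 and 208 at 2 h, and 575, 491 and 444 at 8 h. The first transcript was thus higher in every field sample than in any 0 h sample, and the second was lower at 2 h than in any other DAOY sample. These values were part of the choice of the gene and carry no test here.

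As a share of the gene, the skipping transcript took 1.00, 0.16 and 0.02% of the estimated counts in DAOY at 0 h. The highest of the 95% Wilson intervals there ended at 2.09%. All intervals take each estimated count as a read assigned with certainty. They leave out the error of the split and the spread of replicates, and are too narrow. At 2 h the shares were 51.0% (46.7 to 55.3), 49.1% (45.1 to 53.0) and 63.3% (59.2 to 67.1), and at 8 h 24.8% (21.9 to 28.0), 25.8% (22.6 to 29.3) and 35.8% (32.4 to 39.5). The 3 times did not overlap in DAOY, and their order was 2 h, 8 h and 0 h, with means of 54.5 ± 7.70, 28.8 ± 6.10 and 0.39 ± 0.53% (SD, n = 3 each).

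In U87mg both transcripts were present at every time. The skipping transcript made up 37.3, 32.8 and 21.8% of the gene at 0 h, 46.3, 22.3 and 23.6% at 2 h, and 33.4, 35.0 and 36.4% at 8 h. These ranges overlapped among all 3 times, and the means were 30.6 ± 8.00, 30.8 ± 13.5 and 34.9 ± 1.52% (SD, n = 3 each). The DAOY shares at 8 h fell inside the U87mg range, those at 2 h lay above the highest U87mg share of 46.3%, and those at 0 h lay below the lowest of 21.8%.

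**Figure D1:**
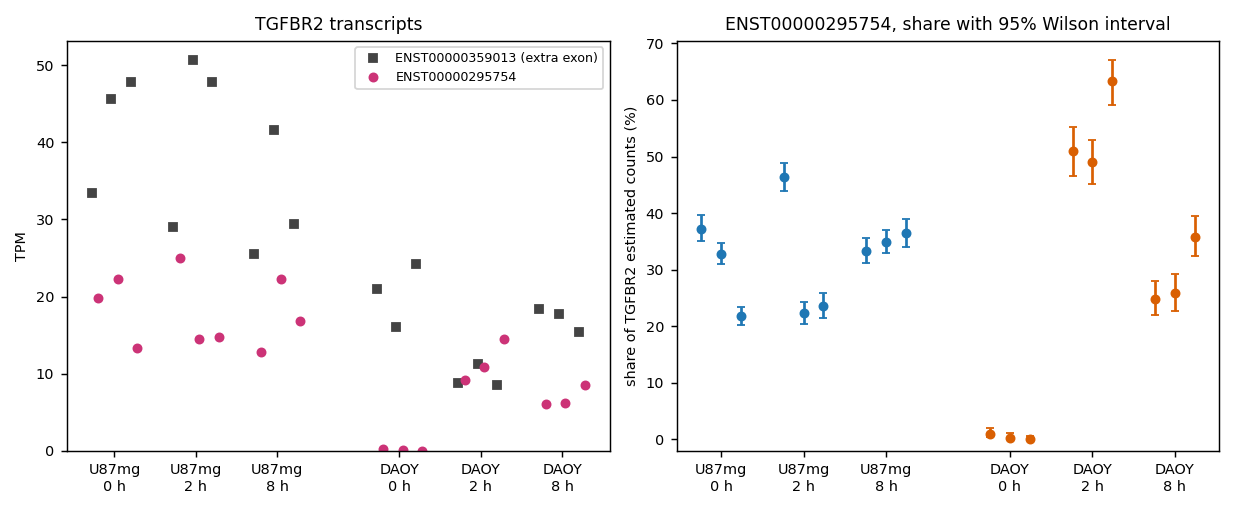
Left, TPM of both TGFBR2 transcripts in each sample. Right, the share of TGFBR2 estimated counts in ENST00000295754 (percent), for 3 samples of each line and time. The 95% Wilson intervals take estimated counts as certain reads, leave out the error of the split and are too narrow. DAOY samples sit at 0.02 to 1.00% at 0 h, 49.1 to 63.3% at 2 h and 24.8 to 35.8% at 8 h, while U87mg samples spread from 21.8 to 46.3% with no separation by time.

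Across all transcripts, edgeR passed 0 of 40613 in U87mg and 0 of 41336 in DAOY at both field times (background 0% in each of the 4 comparisons), with 2257 and 2559 transcripts at an unadjusted p below 0.05 in U87mg and 1269 and 4276 in DAOY. DESeq2 passed 290, 647, 185 and 1898 transcripts in the same 4 comparisons. The member transcripts numbered 28 among those tested in each comparison. Replicates of a transcript can disagree in these files. Of 131 cases in which a member transcript had 50 counts or more in a replicate of a condition, 4 (3.05%) had under 1 count in another replicate of it, beside 11.3% of 141606 such cases over all transcripts. Among the member sums this held for 0 of 54.

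The sum of TGFBR2 did not move with its transcripts. It was 21.2, 16.0 and 24.2 TPM in DAOY at 0 h, 18.01, 22.16 and 23.01 at 2 h, and 24.4, 24.0 and 23.9 at 8 h. The 8 h samples were above all 2 h samples by a small margin, and both times overlapped with 0 h. The log2 fold change of the summed counts was -0.03 at 2 h (95% interval -0.45 to 0.39, adjusted p = 0.999) and 0.28 at 8 h (-0.14 to 0.70, adjusted p = 0.426). In U87mg the sum was 53.2, 67.9 and 61.2 TPM at 0 h, 54.1, 65.2 and 62.6 at 2 h, and 38.3, 64.0 and 46.3 at 8 h. Its log2 fold change there was -0.02 at 2 h (adjusted p = 0.95) and -0.23 at 8 h (-0.55 to 0.10, adjusted p = 0.531). The 8 h changes of the lines differed by 0.51 on the log2 scale (DAOY minus U87mg, -0.03 to 1.04, adjusted p = 0.599), which did not pass.

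The second receptor gene of the signalling pair, TGFBR1, lies on chromosome 9 at 99104038-99154192 (plus strand). It stood at 114, 101 and 73.0 TPM in U87mg at 0 h, 120, 115 and 99.4 at 2 h, and 106, 97.1 and 69.8 at 8 h. In DAOY the values were 121, 76.5 and 47.6 TPM at 0 h, 125, 56.0 and 84.9 at 2 h, and 138, 91.1 and 84.3 at 8 h. Replicates spread widely in DAOY, where replicate 0 was the highest at each time, and neither the times nor the lines separated. Between the lines at 0 h the log2 fold change was -0.07 (DAOY over U87mg, -0.72 to 0.57, adjusted p = 0.849). The leading transcript ENST00000374990 held 40.3% of the gene's TPM, with a range of 16.6 to 61.8 TPM in DAOY and 22.9 to 52.4 in U87mg. In U87mg its 2 h samples (45.6 to 52.4 TPM) lay above all 0 h samples (22.9 to 36.9) and all 8 h samples (26.2 to 42.2). This transcript did not pass by edgeR at 2 h in U87mg (log2 fold change 0.73, adjusted p = 0.878).

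TGFBR3, the co-receptor on chromosome 1 at 91680343-91906335 (minus strand), had the lowest median TPM of the 3 receptor genes followed here, in both lines. It measured 6.84, 6.31 and 3.34 TPM in U87mg at 0 h, 5.22, 6.80 and 2.77 at 2 h, and 3.12, 5.34 and 2.73 at 8 h. DAOY had 16.2, 7.13 and 3.97 TPM at 0 h, 20.7, 5.23 and 11.2 at 2 h, and 24.4, 14.0 and 12.5 at 8 h. Every DAOY 8 h sample was above every U87mg 8 h sample, but the DAOY times overlapped one another. The log2 fold change at 8 h in DAOY was 0.80, with a wide interval (-0.34 to 1.95, adjusted p = 0.404). Leading transcript ENST00000212355 took 80.9% of the TPM, with a median of 3.12 TPM in U87mg and 11.2 in DAOY.

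Of the ligands, TGFB1 (chromosome 19 at 41301587-41353911, minus strand) was higher than TGFB2 in TPM in 9 of 9 DAOY samples and in 5 of 9 U87mg samples. Its level was 24.4, 55.6 and 54.7 TPM in U87mg at 0 h, 35.2, 31.8 and 21.8 at 2 h, and 45.7, 35.5 and 27.9 at 8 h. In DAOY it was 30.8, 87.2 and 66.4 TPM at 0 h, 94.3, 65.3 and 59.5 at 2 h, and 72.9, 41.8 and 64.0 at 8 h. Replicate 0 was the lowest of the 3 in both lines at 0 h. The log2 fold change at 2 h in U87mg was -0.56 (-1.10 to -0.01, adjusted p = 0.495). Without U87mg 0 h replicate 0 it became -0.83 with an adjusted p = 0.0309, while 1214 genes in all then passed, against 0 with all libraries. The leading transcript of TGFB1, ENST00000221930, held 82.4% of its TPM.

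TGFB2 lies on chromosome 1 at 218346235-218444619 (plus strand). Its sums were 33.7, 30.7 and 24.0 TPM in U87mg at 0 h, 27.6, 30.6 and 26.2 at 2 h, and 26.0, 39.7 and 28.8 at 8 h. They were 12.8, 18.6 and 14.7 TPM in DAOY at 0 h, 17.4, 14.4 and 19.4 at 2 h, and 24.1, 22.2 and 23.8 at 8 h. The DAOY 8 h samples lay above all DAOY 0 h samples in TPM. On summed counts the change was smaller, a log2 fold change of 0.34 (-0.21 to 0.88, adjusted p = 0.468), and it did not pass. Of the TGFB2 sum, 59.4% of the TPM came from ENST00000479322, a processed transcript of 1508 bases without a full coding frame, so the TPM sum leans on short transcripts.

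The full-length coding pair of TGFB2 also differ by an exon, and are shown for the same reason as the TGFBR2 pair, chosen after their values were seen. ENST00000366929 holds an exon of 84 bases at chr1:218363334-218363417, in the coding frame of the propeptide that keeps the ligand latent, and ENST00000366930 skips it. Capitals again mark the extra exon.
ENST00000366929: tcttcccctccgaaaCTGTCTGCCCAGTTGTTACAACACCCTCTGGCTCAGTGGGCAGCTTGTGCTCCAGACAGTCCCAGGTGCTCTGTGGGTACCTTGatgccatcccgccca
ENST00000366930: tcttcccctccgaaaatgccatcccgccca
By the same comparison of words as for TGFBR2, 114 of 5023 (2.27%) occur only in ENST00000366929 and 30 of 4939 (0.61%) only in ENST00000366930. The split of this pair therefore also rests on the few reads that cover these words, and such reads were not counted. In U87mg the longer form had 45.4, 43.2 and 45.5 estimated counts at 2 h and 0.0 in all 6 samples at 0 and 8 h. Whether this pattern reflects use of the exon or the split of few reads was not tested. Its share of the pair was 18.5, 11.8 and 18.3% at 2 h. These values are given here as a description, without a test. In DAOY the longer form had 28.3 estimated counts in 0 h replicate 1 and 48.3 in 2 h replicate 0, and 0.0 in the other 7 samples, so its replicates disagreed within those conditions.

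**Figure D2:**
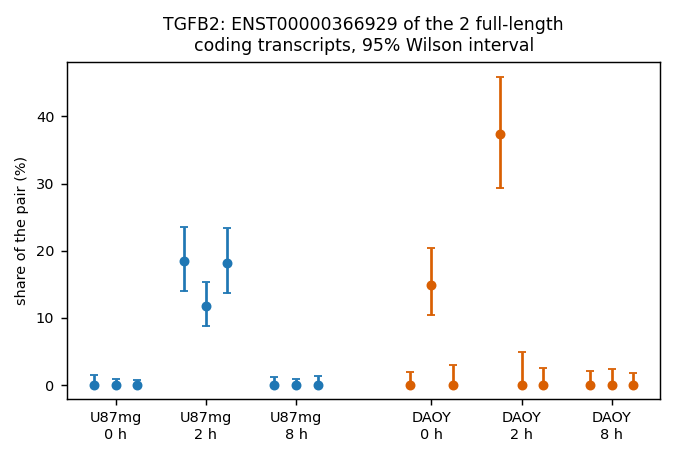
Share of ENST00000366929 in the estimated counts of the 2 full-length coding TGFB2 transcripts (percent), for 3 samples of each line and time. The 95% Wilson intervals take estimated counts as certain reads, leave out the error of the split and are too narrow. The U87mg 2 h samples sit at 11.8 to 18.5% and the other U87mg samples at 0.0%, while DAOY has 2 samples above 0.

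Among the signal carriers, SMAD2 (chromosome 18 at 47808957-47931146, minus strand) had the highest sum of the 9 genes in TPM. It was 186, 157 and 154 TPM in U87mg at 0 h, 166, 171 and 175 at 2 h, and 183, 184 and 186 at 8 h. DAOY had 200.2, 137 and 171 TPM at 0 h, 172, 161 and 199 at 2 h, and 222, 190.1 and 211 at 8 h. The U87mg 8 h samples lay above all U87mg 2 h samples and below all DAOY 8 h samples, and the other pairs of times within a line, and of lines at 0 and 2 h, overlapped. At 0 h the lines differed by 0.02 on the log2 scale (-0.30 to 0.34, adjusted p = 0.935). Of its TPM, 50.2% was assigned to ENST00000586040, a coding model of 1971 bases, and 4.01% to ENST00000356825, of 10445 bases, so its high TPM sum also leans on shorter models.

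SMAD3 (chromosome 15 at 67063763-67195195, plus strand) separated the lines. It measured 12.9, 24.7 and 18.5 TPM in U87mg at 0 h, 15.3, 20.2 and 19.6 at 2 h, and 15.7, 27.4 and 24.3 at 8 h. In DAOY it measured 85.2, 55.3 and 98.9 TPM at 0 h, 59.3, 82.5 and 72.3 at 2 h, and 62.6, 76.4 and 76.0 at 8 h. The lowest DAOY sample, at 55.3 TPM, exceeded the highest U87mg sample, at 27.4 TPM. Within each line the 3 times overlapped, and the largest field value was 0.40 on the log2 scale in U87mg at 8 h (-0.05 to 0.86, adjusted p = 0.383). Its leading transcript ENST00000327367, with 83.3% of the TPM, showed the same separation, 11.9 to 25.2 TPM in U87mg and 47.2 to 82.5 in DAOY.

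The inhibitor SMAD7, on chromosome 18 at 48919853-48952052 (minus strand), blocks the activated receptor. Its sums were 7.92, 10.0 and 5.33 TPM in U87mg at 0 h, 7.56, 8.94 and 5.80 at 2 h, and 9.72, 11.00 and 11.67 at 8 h. In DAOY they were 12.90, 14.57 and 21.99 TPM at 0 h, 16.71, 22.03 and 17.49 at 2 h, and 17.6, 19.7 and 15.8 at 8 h. The lines did not overlap, with 11.7 TPM as the highest U87mg value and 12.9 as the lowest in DAOY. In U87mg at 8 h the log2 fold change was 0.56 (0.08 to 1.03, adjusted p = 0.232), which did not pass over all genes, and the lowest 8 h sample was below the highest 0 h sample. The annotated retained-intron transcript ENST00000545051 held 58.5% of the SMAD7 TPM, and the full coding transcript ENST00000262158 had a median of 2.28 TPM in U87mg and 5.51 in DAOY.

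SKIL, which encodes SnoN, lies on chromosome 3 at 170357678-170396835 (plus strand). It was 19.3, 19.1 and 15.9 TPM in U87mg at 0 h, 23.3, 20.6 and 17.5 at 2 h, and 25.4, 23.4 and 23.1 at 8 h. DAOY had 79.8, 43.7 and 42.9 TPM at 0 h, 63.1, 45.5 and 62.5 at 2 h, and 62.9, 75.1 and 67.1 at 8 h. All DAOY samples were above all U87mg samples, and in U87mg all 8 h samples were above all 0 h samples. The U87mg change at 8 h was 0.36 on the log2 scale (0.05 to 0.67, adjusted p = 0.234) and did not pass. Leading transcript ENST00000458537 (45.1% of the TPM) measured 7.31 to 10.86 TPM in U87mg and 22.02 to 34.94 in DAOY. The next transcript, ENST00000259119, named after its values were seen, stood in DAOY at 18.6, 14.3 and 11.5 TPM at 0 h, 25.4, 1.96 and 19.5 at 2 h, and 35.7, 28.8 and 35.1 at 8 h.

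**Figure D3:**
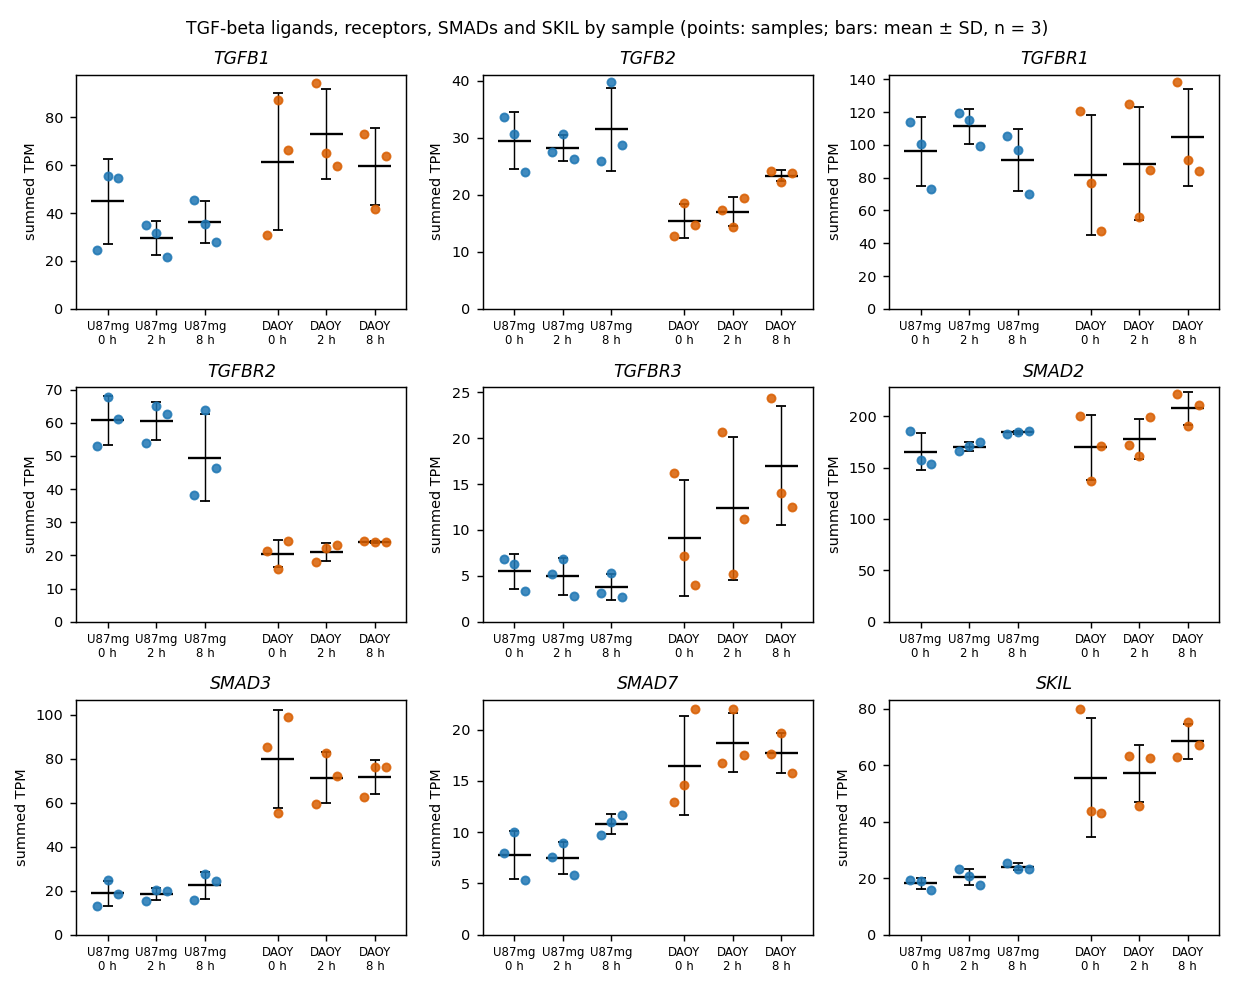
Summed TPM (y axes from 0) of each of the 9 genes in the 18 samples, by line and hours of field; points are samples and black bars are the mean ± SD (n = 3). SMAD3, SMAD7 and SKIL lie higher and TGFBR2 lower in all DAOY samples than in any U87mg sample, while within a line most pairs of times overlap.

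None of the 9 genes passed the test in a comparison of a field time with 0 h. The 4 counts were 0 of 9, against backgrounds of 0% of all genes in U87mg at 2 h, 1.72% in U87mg at 8 h and, for DAOY, 0% at 2 h and 5.85% at 8 h. At an unadjusted p below 0.05 stood TGFB1 in U87mg at 2 h, and SMAD7 and SKIL in U87mg at 8 h. In DAOY at 8 h, 9 of 9 log2 fold changes were above 0, with a median of 0.28 beside -0.01 over all genes tested, and their adjusted p ran from 0.404 to 0.936. The other member medians were -0.02 in U87mg at 2 h, 0.05 in U87mg at 8 h and 0.01 in DAOY at 2 h, beside -0.02, 0.00 and 0.00 over all genes. The comparisons of a line share its 0 h samples. The intervals leave room for changes in both directions: over the 9 genes they reached from -1.10 to 0.61 in U87mg at 2 h, -0.72 to 1.03 in U87mg at 8 h, and, for DAOY, -0.89 to 1.41 at 2 h and -0.54 to 1.95 at 8 h.

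Sums whose TPM did not overlap with 0 h were equally few. They numbered 0 of 9 in U87mg at 2 h (15.3% of all genes), 1 in U87mg at 8 h (SKIL, background 16%), and, for DAOY, 0 at 2 h (7.46%) and 1 at 8 h (TGFB2, 23.9%), in each case a share of the members at or below that of all genes. The test of whether the 8 h change differed between the lines passed for 0 of 9 genes, against 0.0121% of all genes, with member values from -0.31 for SMAD3 to 0.81 for TGFBR3.

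The lines, in contrast, differed in 6 of the 9 genes before any field was applied, beside 60.7% of all genes. SMAD3 was 3.43-fold higher in DAOY (log2 fold change 1.78, SE 0.23, adjusted p = 3.64e-06) and SKIL 2.93-fold higher (1.55, SE 0.20, adjusted p = 4.25e-06). SMAD7 was 2.06-fold higher (1.04, SE 0.21, adjusted p = 0.00038). With protein coding transcripts alone its value was 0.70 and no longer passed (adjusted p = 0.0734). TGFBR2 was lower in DAOY, at 0.328 of the U87mg level (-1.61, SE 0.18, adjusted p = 7.87e-07), and TGFB2 at 0.532 (-0.91, SE 0.23, adjusted p = 0.00202). TGFB1 had a log2 fold change of 0.39 (-0.20 to 0.97, adjusted p = 0.239) and, like TGFBR1 and SMAD2, did not pass.

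TGFBR3 passed at 2.31-fold (1.21, SE 0.44, adjusted p = 0.025), and the call rested on single libraries. Without DAOY 0 h replicate 0, the sample with 16.2 TPM, the log2 fold change was 0.48 with an adjusted p = 0.316. It was 1.21 with an adjusted p = 0.0578 without U87mg 0 h replicate 1, and 1.06 with an adjusted p = 0.0899 without U87mg 0 h replicate 2. On log2(TPM + 1) it was 0.49 with an adjusted p = 0.401.

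Across all times, 4 of 9 genes did not overlap between the 9 DAOY and the 9 U87mg samples in TPM (36% of all genes): SMAD3, SMAD7 and SKIL, higher in DAOY, and TGFBR2, lower. The ratios of mean TPM, DAOY to U87mg, were 3.74 for SMAD3, 2.89 for SKIL, 2.04 for SMAD7 and 0.38 for TGFBR2. TGFB2 nearly separated, with 23.95 TPM as the lowest U87mg value and 24.09 as the highest in DAOY. By median TPM the order in U87mg was SMAD2 (175), TGFBR1 (101), TGFBR2 (61.2), TGFB1 (35.2), TGFB2 (28.8), SKIL (20.6), SMAD3 (19.6), SMAD7 (8.94) and TGFBR3 (5.22). In DAOY it was SMAD2 (190.1), TGFBR1 (84.9), SMAD3 (76.0), TGFB1 (65.3), SKIL (62.9), TGFBR2 (23.0), TGFB2 (18.6), SMAD7 (17.5) and TGFBR3 (12.5). Neighbours in this order whose samples did not overlap were SMAD2 and TGFBR1, TGFBR1 and TGFBR2, and SMAD3 and SMAD7 in U87mg, and SKIL and TGFBR2 in DAOY. The ranges of all other neighbours overlapped. Such overlap does not give the order within a library: SMAD2 was above TGFBR1 in every DAOY library although their ranges overlapped.

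**Figure D4:**
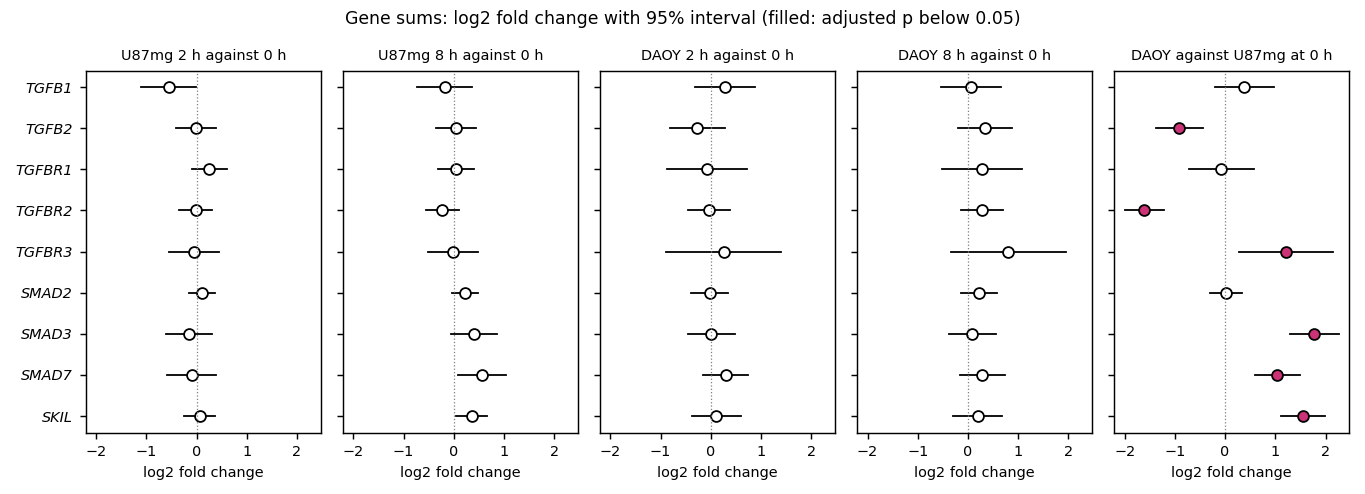
Log2 fold changes of the summed counts of the 9 genes with 95% intervals in the 4 field comparisons and between the lines at 0 h; filled points have an adjusted p below 0.05. No point is filled in the field comparisons, and 6 are filled between the lines, from -1.61 for TGFBR2 to 1.78 for SMAD3.

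The wider pathway was described from 7 lists of 92 genes in all, of which 78 were tested in U87mg and 88 in DAOY. At 2 h, 0 passed in either line. At 8 h in U87mg, 1 rose and 1 fell (2.56% of the listed genes, beside 1.72% of all genes): EP300, a histone acetyltransferase that SMADs use as coactivator, rose from 32.1 ± 2.95 to 53.3 ± 6.04 TPM (SD, n = 3; log2 fold change 0.65, adjusted p = 0.0361), and HMGA2, a chromatin protein induced by TGF-beta, fell from 102.6 ± 7.87 to 65.0 ± 1.89 TPM (-0.73, adjusted p = 0.0168). Neither passed without U87mg 8 h replicate 2 (adjusted p = 0.17 for EP300 and 0.101 for HMGA2) or without U87mg 0 h replicate 2 (0.137 and 0.0631), and EP300 passed in only 3 of the 9 fits that left out 1 library. At 8 h in DAOY, 3 rose and 1 fell (4.55%, beside 5.85% of all genes). CYR61, a matricellular protein, went from 31.4 ± 5.13 to 122 ± 41.6 TPM (2.02, adjusted p = 0.00884), and the ligand BMP4 from 6.62 ± 0.58 to 22.6 ± 1.38 TPM (1.89, adjusted p = 0.0121). CREBBP, the relative of EP300, went from 30.1 ± 4.36 to 46.9 ± 11.6 TPM (0.65, adjusted p = 0.0484). CTGF, a matricellular protein of the same family as CYR61, fell from 134 ± 37.5 to 60.9 ± 17.3 TPM (-1.10, adjusted p = 0.047), so these 2 target genes moved in opposite directions. CYR61 passed in 9 of 9 fits with 1 library left out, BMP4 in 7 (not without DAOY 8 h replicate 1 or 2, adjusted p = 0.0591 and 0.0524), CTGF in 1 and CREBBP in 0. Leaving out a library gave log2 fold changes of -1.37 to -0.73 for CTGF, the lowest in size without DAOY 0 h replicate 0, and of 0.55 to 0.75 for CREBBP. The medians over the lists were -0.02 in U87mg and 0.04 in DAOY at 8 h, beside 0.00 and -0.01 over all genes.

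By list, the field comparison at 8 h called 1 of 11 ligands tested in DAOY and 0 of 8 in U87mg, and 0 of 13 and 0 of 12 receptors. Over all genes it called 5.85% in DAOY and 1.72% in U87mg. It called 0 of 9 SMADs and 0 feedback genes and inhibitors in either line (10 tested in U87mg, 13 in DAOY). Of the target genes it called 1 of 26 in U87mg and 2 of 28 in DAOY. Among positive modifiers it called 1 of 7 in each line, EP300 in U87mg and CREBBP in DAOY. Latency and activation genes had 0 of 10 called in U87mg and 0 of 11 in DAOY.

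Between the lines at 0 h, 40 of the 88 listed genes were higher and 19 lower in DAOY, 67.0% beside 60.7% of all genes, so the counts by list are a description and nothing particular to the pathway. Among feedback genes and inhibitors, 9 of 13 were higher and 3 lower. TGIF2, a corepressor of SMADs, stood at 18.2 ± 4.17 TPM in DAOY and 0.12 ± 0.06 in U87mg (SD, n = 3; adjusted p = 3.56e-11), BAMBI, a decoy receptor, at 16.6 ± 2.44 and 0.41 ± 0.24 TPM (adjusted p = 8.91e-10), and PMEPA1, which holds back SMAD activation, at 46.3 ± 4.52 and 9.56 ± 3.60 TPM (adjusted p = 4.84e-08). TGIF1, the relative of TGIF2, went the other way, at 28.2 ± 4.22 TPM in DAOY and 64.5 ± 19.1 in U87mg (adjusted p = 3.63e-05). Of the ligands, 6 of 11 were higher and 4 lower. INHBA, the activin subunit, had 295 ± 158 TPM in DAOY and 4.87 ± 2.00 in U87mg (adjusted p = 3.84e-08), and GDF15, a distant ligand, 8.71 ± 2.92 and 46.9 ± 9.76 TPM (adjusted p = 2.54e-05). Receptors split into 6 higher and 2 lower of 13, SMADs into 2 and 0 of 9, latency and activation genes into 4 and 2 of 11, and positive modifiers into 3 and 2 of 7. Target genes were 12 higher and 6 lower of 28. COL3A1, a fibrillar collagen, had 837 ± 404 TPM in DAOY and 0.32 ± 0.07 in U87mg (adjusted p = 3.43e-10), while ADAM12, a metalloprotease (26.1 ± 7.02 against 75.2 ± 9.92 TPM, adjusted p = 5.05e-06), and BHLHE40, a transcription factor (23.9 ± 7.21 against 126 ± 16.6 TPM, adjusted p = 7.75e-06), were lower. The median log2 differences were 1.04 for feedback genes and inhibitors, 0.71 for ligands, 0.47 for receptors, 0.34 for target genes, 0.33 for latency and activation, 0.27 for positive modifiers and 0.17 for SMADs, beside 0.49 over all listed genes and 0.05 over all genes.

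**Figure D5:**
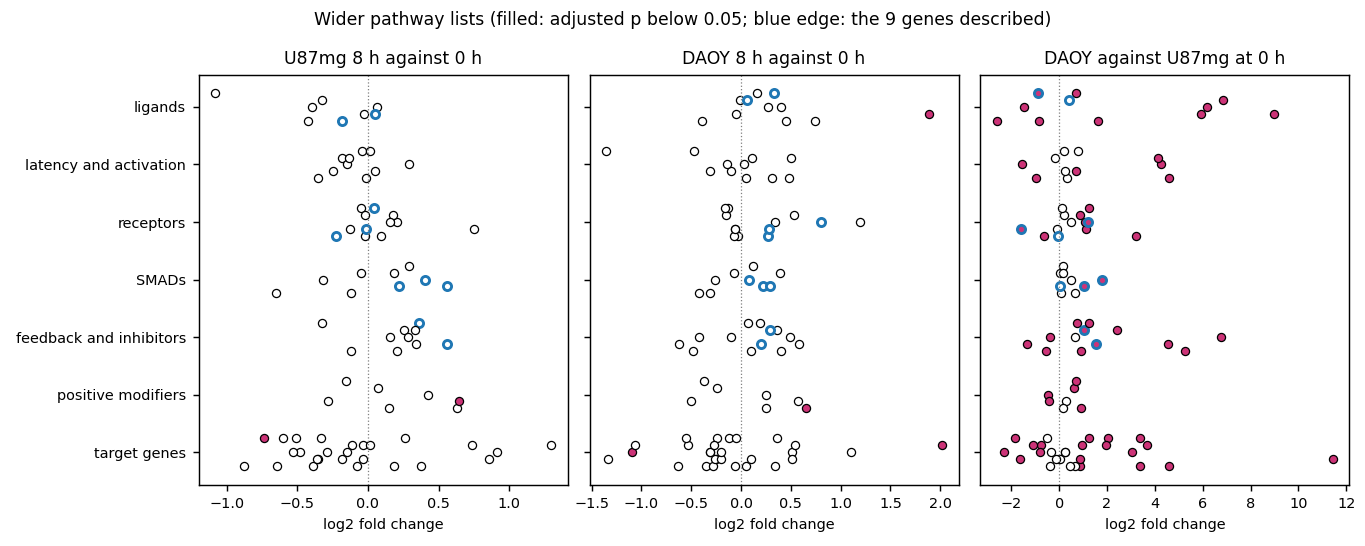
Log2 fold change of each tested gene of the 7 pathway lists at 8 h in U87mg, at 8 h in DAOY and between the lines at 0 h (x axes differ between panels); each point is a gene, filled points have an adjusted p below 0.05 and blue edges mark the 9 genes. At 8 h, 2 listed genes are filled in U87mg and 4 in DAOY, against 59 between the lines.

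The genes with the pattern most like TGFBR2 over the 18 samples, after the mean of each line was removed from log2 CPM, were BICC1 (Pearson r 0.878), DUXAP8 (0.862) and RP11-609N14 (0.809) among 13137 genes. The samples share their libraries and conditions, and the likeness is given as a description.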

How the data were processed

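Poly-A selected, stranded libraries from 18 pools were sequenced single-end. Per the submitters' processing notes and the methods of the study, the authors trimmed reads (FastQC toolkit 2.0.0), quantified them with kallisto 0.43.0 on GENCODE 24 (GRCh38.p5) and joined them in sleuth 0.28.1 (R 3.2.1). The strand setting is not given in the sources used here. The deposited values are estimated counts per transcript and TPM (a share of all transcripts, scaled for length) for each sample. kallisto divides reads shared by transcripts, so single transcripts are less certain than sums. The authors' columns of p, q and fold change for 8 comparisons were not used.

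Estimated counts were summed by gene name, rounded, filtered (filterByExpr), scaled by TMM and tested with edgeR 4.0.16 (glmQLFit, glmQLFTest; R 4.3.3) over all genes, 9 samples of a line at a time, or 18 for comparisons of lines. Adjusted p are Benjamini-Hochberg values, with 0.05 as the threshold, and intervals are 95% from the fit. Levels and mean ± SD are summed TPM. Alternatives used DESeq2 1.42.0 and limma 3.58.1 on log2(TPM + 1) and log2(TPM + 0.1), other filters and normalization, a replicate block, protein coding transcripts alone, and each replicate left out. The procedure was tested on simulated data. Total counts ran from 8341976 to 15610886 per sample. Depth intervals are Wilson 95% on rounded estimated counts taken as certain reads, and the limit for a count of 0 is 3 counts of the total. Positions come from GENCODE 29 (GRCh38), in which all 61 member transcripts were found, and sequences from its transcripts. The members, the pathway lists and the tests were chosen with earlier results of these data known. Named genes were the 9 members, at most 5 listed genes per direction that passed in a comparison, and transcripts with at least 5% of TGFBR2 or the highest mean of another member. The other listed genes are given as counts. Outside this rule, and after their values were seen, SKIL ENST00000259119, TGFB2 ENST00000366929 and ENST00000366930, TGFBR1 ENST00000374994, SMAD7 ENST00000262158 and SMAD2 ENST00000356825 were named.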

Additional observations from a re-analysis of the deposited data

How the results depend on the processing

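Counts of member genes or transcripts that passed were recomputed in 158 cases. In 5 of them the count left or reached 0, or changed by more than 1.5-fold. Smaller changes, such as 5 in place of 6 between the lines, are not among these. Leaving out each replicate in turn gave 0 to 1 members in U87mg at 2 h, 5 to 6 between the lines, and 0 throughout in the other field comparisons, for the difference of the 8 h changes and for member transcripts. The transcript count over the 4 field comparisons, 0 by edgeR, was 5 with DESeq2, 2 with no filter on low counts, and 3 in limma for either pseudocount, 1 or 0.1 TPM. Each comparison tested 28 member transcripts, or with no filter 50 in U87mg and 56 in DAOY. Over all transcripts and the 4 comparisons, 3020 of 163898 tests passed with DESeq2 and 17 of 489564 with no filter. In limma 53 passed for 1 TPM and 159 for 0.1 TPM, of 163898. The TGFBR2 transcripts among these calls had values that were part of the choice of the gene, and support nothing. Outside TGFBR2, DESeq2 and both limma fits called TGFB2 ENST00000366929 in U87mg at 2 h. DESeq2 alone called TGFBR1 ENST00000374994 in U87mg at 8 h (log2 fold change 0.47). By edgeR their adjusted p were 0.491 and 0.522. Both were named after their values were seen, and are given as a description. The cause of the differences between methods was not tested. Correlations did not settle whether the replicate numbers pair the samples. Same-numbered samples of a line correlated at -0.199 to 0.435 in their deviations from group means (median 0.064, above 0.1 in 7 of 18 pairs). Samples of other numbers correlated at -0.274 to 0.446 (median -0.068, above 0.1 in 10 of 36 pairs). Same-numbered pairs of 2 h and 8 h samples ran from 0.147 to 0.265 in U87mg and from 0.065 to 0.435 in DAOY. Other-numbered pairs of these times ran from -0.173 to -0.004 in U87mg, without overlap, and from -0.257 to 0.173 in DAOY, with overlap. Same-numbered pairs of 0 h with a field time had both signs. With the replicate number as a block, members that passed were 0 in each field comparison and 6 between the lines, as without it, and 0 transcripts passed, while all genes that passed fell from 243 to 145 in U87mg and from 900 to 429 in DAOY at 8 h. Of 1206 single values under an alternative, 86 had the other sign and 0 of those passed. TGFBR3 between the lines did not pass on log2(TPM + 0.1) either (0.55, adjusted p = 0.413). Over the other alternatives, calls among all genes at 8 h ran from 0, with the 6 samples compared alone, to 585, with no filter, in U87mg and from 207 to 1808 in DAOY. Over all 18 samples the test that the 8 h change differs called 2 genes, 0 with the block and 158 with no filter. With 3 samples a group, the depth and the spread limit what the intervals can show.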
